A study of Gallus gallus with 3 samples.

Results

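The genes described here are 6 Toll-like receptor genes of the chicken (TLR3, TLR4, TLR5, TLR7, TLR15 and TLR21) and MYD88, the adaptor through which most of these receptors signal. They were picked by gene name, as a list drawn up when earlier results of these data were known, and all 7 were found among 11877 genes in the deposited count table and 11929 in the FPKM table. Of the 7, 6 passed the filter on low counts, and TLR15 did not.

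The libraries were 3, each from DT40-ASF cells, a chicken B cell line. Those with the genotype SRSF1-3 knock in were 2, named clone 41 and clone 47, and 1 was a control library of untransfected cells. SRSF1 is a splicing factor of the SR family, and from general knowledge of the line, which the files do not test, its chicken SRSF1 gene was disrupted and a human copy, ASF, was supplied. The labels call all of them reconstituted cells grown in the same medium with foetal bovine and chicken serum, and name no ligand of a Toll-like receptor. Each knock-in library is 1 clone and the control is no clone of the same transfection, so transfection, clonal history and the knock-in cannot be told apart. Single-library values below have no replicate, and the intervals are 95% intervals of counting error only. In bulk RNA, fewer cells that express a gene and less RNA per cell cannot be told apart.

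Toll-like receptors are membrane proteins that bind microbial products through leucine-rich repeats and signal through an intracellular TIR domain. Receptors at the cell surface recognise lipopeptides, lipopolysaccharide or flagellin, while receptors in endosomes recognise nucleic acids. MYD88 joins the TIR domain of a receptor to kinases of the IRAK family, and the pathway ends at NF-kB and at interferon regulatory factors. B cells carry several of these receptors. Birds lack TLR9, and TLR21 is the chicken receptor for unmethylated CpG DNA; TLR15 is known from birds and reptiles.

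The total count was 42439517 in clone 41, 41760372 in clone 47 and 44868987 in the control. SRSF1, the gene of the knock-in, had 1991 counts in clone 41, 5645 in clone 47 and 1402 in the control, over all isoforms. These counts do not separate reads of the knock-in, of the human copy or of any transcript left from the chicken gene, and which of them gave the control its counts was not tested. Knock-in against control, tested on 10203 genes, gave 0 genes with an adjusted p below 0.05 in edgeR's quasi-likelihood test, or 0% of genes tested, and 81 with an unadjusted p below 0.05. The legacy estimator of that test and DESeq2 gave 2 genes each and limma-voom gave 1, none of them among the genes described here.

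Levels were compared between genes as FPKM, which scales for transcript length. MYD88 was the highest of the 7 in each library, at 8.80 FPKM in clone 41 (counting interval 8.43 to 9.19), 11.4 in clone 47 (10.9 to 11.8) and 7.92 in the control (7.57 to 8.28). This placed MYD88 near the middle of all listed genes, above 54.0% of them in clone 41, 58.2% in clone 47 and 51.1% in the control. The receptors lay lower. In the control their order was TLR4 at 3.41 FPKM (3.16 to 3.67), TLR7 at 2.71 (2.50 to 2.94), TLR21 at 2.46 (2.25 to 2.69), TLR5 at 0.385 (0.296 to 0.492) and TLR3 at 0.275 (0.220 to 0.339). In that order TLR7 and TLR21, and TLR5 and TLR3, had overlapping counting intervals.

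In clone 41 the order was TLR4 at 6.73 FPKM, TLR7 at 3.82, TLR21 at 2.59, TLR5 at 0.611 and TLR3 at 0.224, and no counting intervals of neighbours in that order overlapped. In clone 47 it was different: TLR21 came first at 5.59 FPKM (5.25 to 5.95), then TLR7 at 1.12 (0.980 to 1.28), TLR4 at 0.643 (0.535 to 0.766), TLR5 at 0.180 (0.116 to 0.266) and TLR3 at 0.0708 (0.0471 to 0.102). TLR4, the receptor with the highest level in clone 41 and in the control, was below TLR21 and TLR7 in clone 47.

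**Figure D1:**
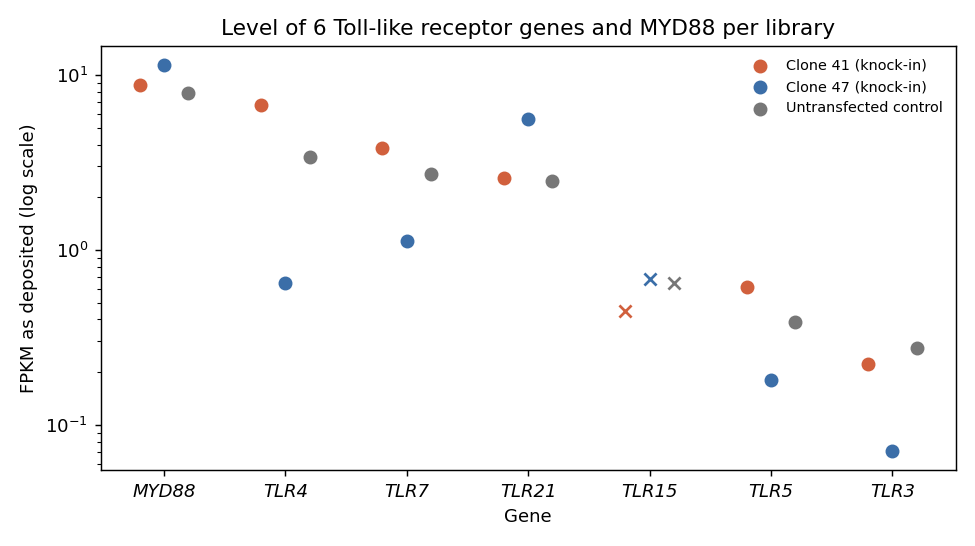
FPKM as deposited, on a log scale, of MYD88 and 6 Toll-like receptor genes (x axis) in the clone 41, clone 47 and control libraries, 1 point per library. TLR4, TLR7, TLR5 and TLR3 are lowest in clone 47, while TLR21 and MYD88 are highest there; TLR15 is drawn as crosses because its counts and its FPKM differ.

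Against the control, clone 47 had lower counts of 4 of the 6 members that passed the filter, TLR4, TLR7, TLR5 and TLR3, each by at least 2-fold, and at least 2-fold higher counts of 1, TLR21. Over all genes tested, 7.57% were at least 2-fold lower and 9.42% at least 2-fold higher in clone 47. Clone 41 had 1 of the 6 at least 2-fold higher, TLR4, and 0 at least 2-fold lower, where 3.2% of all genes tested were so much higher and 5.55% so much lower. The median log2 ratio of the 6 was 0.38 in clone 41 and -1.29 in clone 47, beside medians over all genes tested within 0.01 of 0. These 2 comparisons share the control library.

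**Figure D2:**
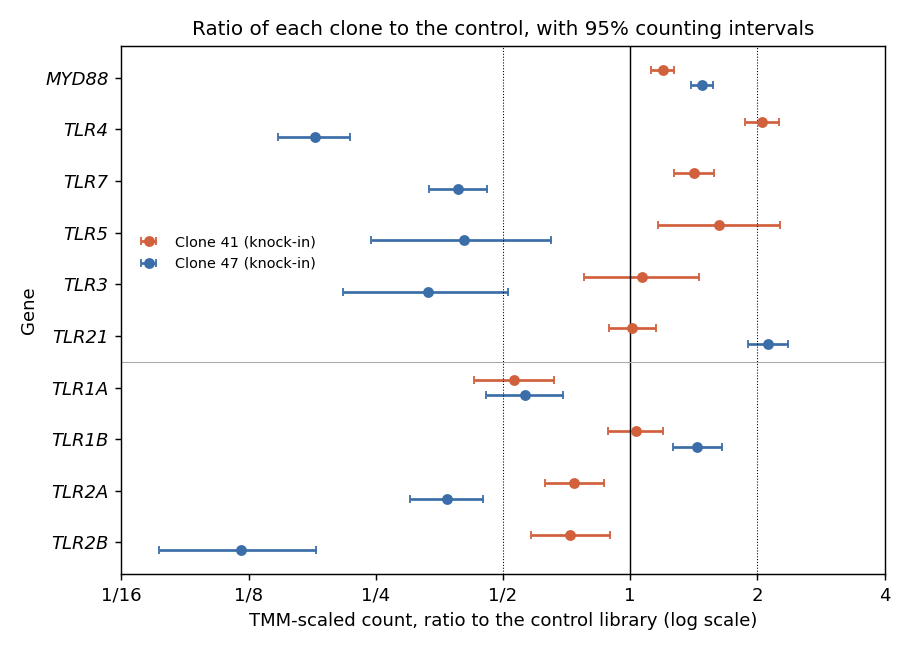
Ratio of each clone to the control (x axis, log scale) in counts scaled by TMM, with 95% intervals of counting error, for the members that passed the filter (above the grey line) and 4 other Toll-like receptor genes (below it). The dotted lines mark a 2-fold difference; TLR4, TLR7 and TLR5 lie to the right of 1 in clone 41 and to the left of 1 in clone 47.

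Among the receptors of the cell surface, TLR4, which recognises lipopolysaccharide, had 1314 counts in clone 41, 124 in clone 47 and 715 in the control. Clone 41 was high and clone 47 low, with the control between them. TLR4 had a clone 41 to control ratio of 2.05 (interval 1.87 to 2.25) and a clone 47 to control ratio of 0.179 (0.147 to 0.217). Its ratio in clone 47 was lower than that of all but 0.961% of genes tested, and its ratio in clone 41 was higher than that of 96.9%. The 2-fold difference in clone 41 lay at the threshold, since with total-count scaling the log2 ratio was 0.96.

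TLR5, the receptor for flagellin, had 93 counts in clone 41, 25 in clone 47 and 64 in the control. It showed the same order of libraries as TLR4. TLR5 had a clone 41 to control ratio of 1.62 (interval 1.17 to 2.26) and a clone 47 to control ratio of 0.404 (0.244 to 0.650), on few counts. LOC421332 overlaps TLR5 in RefSeq's annotation of the chicken assembly GRCg7b, and whether its reads enter these counts was not tested.

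Of the receptors of endosomes, TLR7, which recognises single-stranded RNA, had 736 counts in clone 41, 220 in clone 47 and 580 in the control. It had a clone 41 to control ratio of 1.41 (interval 1.27 to 1.58) and a clone 47 to control ratio of 0.392 (0.334 to 0.459), so that its libraries stood in the same order as those of TLR4 and TLR5. TLR3, which recognises double-stranded RNA and is known in mammals to signal through the adaptor TICAM1 and not MYD88, had 83 counts in clone 41, 28 in clone 47 and 87 in the control. Clone 47 was the low library, with a ratio to the control of 0.333 (0.209 to 0.514). For clone 41 that ratio was 1.06 by counts (0.778 to 1.45) and 0.814 by FPKM, and 1 lies inside the counting interval.

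TLR21 had the opposite direction in clone 47. It had 451 counts in clone 41, 1017 in clone 47 and 497 in the control, which put clone 47 apart from the other libraries. TLR21 had a clone 41 to control ratio of 1.01 (interval 0.888 to 1.15) and a clone 47 to control ratio of 2.12 (1.90 to 2.36). SLC7A6 overlaps TLR21 in RefSeq's annotation of the chicken assembly GRCg7b, and without a stated strand setting reads of overlapping genes could be assigned to either. SLC7A6, an amino acid transporter gene, had ratios to the control of 1.20 (clone 41) and 0.757 (clone 47), the opposite direction to TLR21 in clone 47.

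MYD88 had 2039 counts in clone 41, 2725 in clone 47 and 1905 in the control. Both clones were above the control, with a ratio of 1.19 (1.12 to 1.27) for clone 41 and of 1.48 (1.39 to 1.57) for clone 47. Its ratio was higher than that of 79.2% of genes tested in clone 41 and 80.6% in clone 47. Of the 6 members that passed the filter, MYD88 was the one whose libraries lay closest.

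TLR15 had 1 count in clone 41, 2 in clone 47 and 1 in the control, all under 3 counts, so no ratio is given. Its deposited FPKM did not match these counts, at 0.445 in clone 41, 0.681 in clone 47 and 0.646 in the control, above that of TLR3 in each library. Counts divided by FPKM and by the library total, which for 1 gene measures a length in bases, gave 34.5 bases for TLR15 in the control, where the median over 11047 genes was 3212 and the other members lay between 3705 and 7055. Only 1.33% of genes had a value as low. GPR75, a G protein-coupled receptor gene that overlaps TLR15 in GRCg7b, had 107 counts in clone 41, 176 in clone 47 and 170 in the control, and a row in the count table only. Its count ratios to the control, 0.702 in clone 41 and 1.07 in clone 47, stood beside TLR15 FPKM ratios of 0.689 and 1.05. The count of GPR75 over the FPKM of TLR15 came to 5662 bases in clone 41, 6184 in clone 47 and 5864 in the control. Which gene the reads behind the FPKM of TLR15 came from was not tested, so neither measure is taken here as the level of TLR15.

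As a group of 2 clones against the control, no member passed edgeR's quasi-likelihood test. The fitted log2 fold change was 0.42 for MYD88 (SE 0.49), 0.65 for TLR21 (SE 0.69), 0.15 for TLR4 (SE 0.84), -0.15 for TLR7 (SE 0.74) and -0.53 for TLR3 (SE 1.01), and that of TLR5 lay within 0.01 of 0. The adjusted p was 1 for each of the 6 in edgeR's quasi-likelihood test, and the lowest unadjusted p was 0.36, that of TLR21. For TLR4, TLR5 and TLR7 the clones lay on opposite sides of the control. With 3 libraries in 2 groups the test has 1 residual degree of freedom, and the single control is taken to vary as much as the clones do. The p-values rest only on the spread between these libraries, which edgeR moderates over all genes tested. An SE is therefore not the spread of that gene alone.

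Clone 41 set against clone 47 differed by more than either clone did from the control for TLR4, TLR5 and TLR7, but not for MYD88. For TLR3 which gap was wider depended on the measure, and for TLR21 on the scaling. TLR21 had log2 ratios of -1.06 between the clones and 1.08 for clone 47 over the control. With total-count scaling these were -1.19 and 1.13. TLR4 was 11.4 times as high in clone 41 as in clone 47 (9.50 to 13.9), a ratio above that of 99.7% of genes tested. TLR5 was at 4.01 times (2.56 to 6.51), TLR7 at 3.61 times (3.10 to 4.21) and TLR3 at 3.20 times (2.06 to 5.10) the level of clone 47. For TLR21 the ratio of clone 41 over clone 47 was 0.478 (0.427 to 0.535), and for MYD88 it was 0.807 (0.762 to 0.855). At least 2-fold higher in clone 41 were thus 4 of the 6, and 1 was at least 2-fold lower, beside 8.67% and 12.2% of all genes tested. With 1 library per clone there is no test of these differences.

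**Figure D3:**
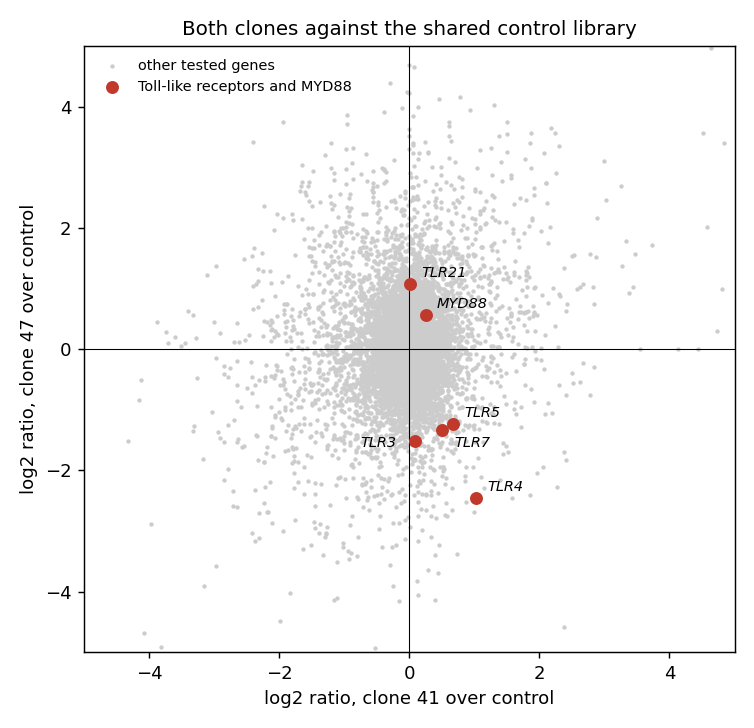
log2 ratio to the control of clone 41 (x axis) and clone 47 (y axis) for the tested genes (grey) and the 6 members that passed the filter (red); 11 genes lie outside the axes. TLR4, TLR5 and TLR7 lie in the lower right part, higher in clone 41 and lower in clone 47, while MYD88 lies in the upper right part and TLR21 close to the vertical line.

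The make-up of receptor transcripts was described with the 4 other Toll-like receptor genes that the tables list, TLR1A, TLR1B, TLR2A and TLR2B, whose products pair to recognise lipopeptides. The 10 receptor genes together came to 22.9 FPKM in clone 41, 16.0 in clone 47 and 21.7 in the control. TLR4 held 29.4% of this sum in clone 41, 4.02% in clone 47 and 15.7% in the control. TLR21 held 11.3% in clone 41, 35.0% in clone 47 and 11.4% in the control, and TLR7 held 16.7%, 7.02% and 12.5% in the same libraries. The level of TLR4 was 2.60 times that of TLR21 in clone 41, 0.115 times in clone 47 and 1.38 times in the control. MYD88 was at 0.385 times the summed receptor FPKM in clone 41, 0.711 times in clone 47 and 0.366 times in the control. The sums include the FPKM listed under TLR15, between 1.95% and 4.26% of them.

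**Figure D4:**
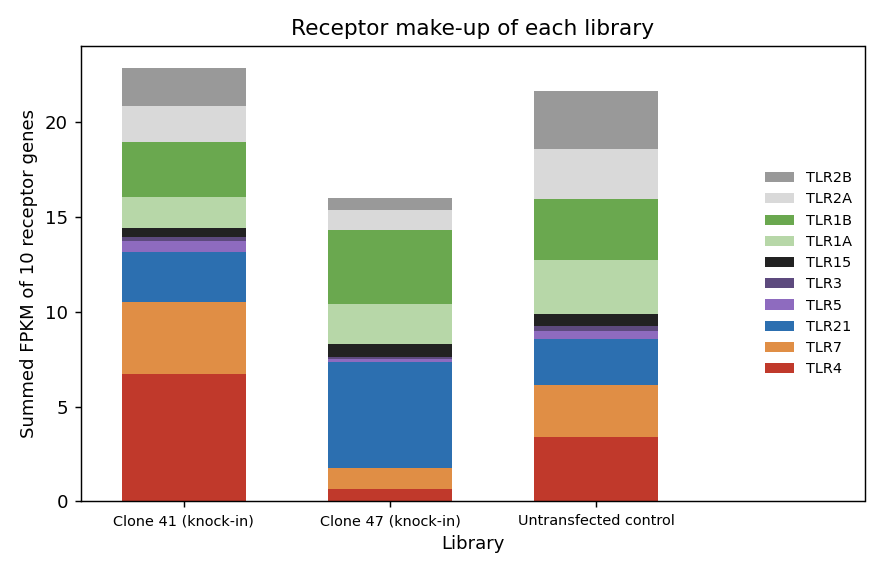
Summed FPKM of 10 Toll-like receptor genes in each library, stacked by gene. The TLR4 part is 6.73 FPKM in clone 41, 0.643 in clone 47 and 3.41 in the control, and the TLR21 part is 2.59, 5.59 and 2.46 in the same libraries.

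The 4 other receptors differed in direction. TLR2B had 145 counts in clone 41, 26 in clone 47 and 224 in the control, with a clone 47 to control ratio of 0.120 (0.0767 to 0.180) by counts and 0.207 by FPKM. TLR2A had ratios of 0.737 (clone 41) and 0.369 (clone 47), TLR1A had 0.532 (clone 41) and 0.563 (clone 47), and TLR1B had 1.03 (clone 41) and 1.44 (clone 47). At least 2-fold lower in clone 47 were therefore 2 of these 4, TLR2A and TLR2B, beside 7.57% of all genes tested. TLR1A and TLR1B are duplicated genes of similar sequence, as are TLR2A and TLR2B, and reads could be divided unevenly within each pair. TLR1A and TLR1B also neighbour each other in GRCg7b, as do TLR2A and TLR2B. LOC101748357 overlaps TLR2A there and LOC112532348 overlaps TLR2B, and whether their reads enter these counts was not tested.

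Co-factors that fold, carry or assist the receptors were looked at next, of which 8 of 13 listed were tested. In clone 47, 2 were at least 2-fold lower and 1 at least 2-fold higher, beside 7.57% and 9.42% of all genes tested. UNC93B1, which carries nucleic acid receptors to endosomes, had a clone 41 to control ratio of 0.947 and a clone 47 to control ratio of 0.439 by counts; by FPKM the clone 47 ratio was 0.679. CNPY3, a chaperone of Toll-like receptors, had ratios of 1.12 (clone 41) and 0.476 (clone 47). LY96, the MD-2 subunit that binds lipopolysaccharide together with TLR4, had 7803 counts in clone 41, 4424 in clone 47 and 8737 in the control, giving ratios of 0.996 (clone 41) and 0.523 (clone 47). CD14, which hands lipopolysaccharide to that complex and is named for this role, had only 8 counts in clone 41, 39 in clone 47 and 18 in the control. HSP90B1, another receptor chaperone, had ratios of 0.965 (clone 41) and 0.753 (clone 47). The median log2 ratio of the 8 was -0.03 in clone 41 and -0.33 in clone 47.

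Adaptors with a TIR domain and receptors of the IL-1 family, which share MYD88, had 7 of 14 listed genes tested, and their median log2 ratio was 0.02 for clone 41 and 0.26 for clone 47. TIRAP, which links MYD88 to TLR4 at the membrane in mammals, had ratios of 0.821 (clone 41) and 1.45 (clone 47), and TICAM1 had ratios of 0.895 (clone 41) and 1.20 (clone 47). PIK3AP1, an adaptor to phosphoinositide 3-kinase in B cells, stood at 1.07 (clone 41) and 0.648 (clone 47). IL1RAP, the shared chain of IL-1 receptors, stood at 1.05 (clone 41) and 0.851 (clone 47). In each clone 1 gene was at least 2-fold higher, beside 3.2% of all genes tested in clone 41 and 9.42% in clone 47. It was IL1R1, which had 11 counts in clone 41, 9 in clone 47 and 3 in the control and is named after its values were seen.

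Of the kinases and ubiquitin ligases downstream of MYD88, 25 of 32 listed were tested. Clone 41 had 1 at least 2-fold lower and 0 higher, beside 5.55% and 3.2% of all genes tested. Clone 47 had 4 lower and 1 higher, beside 7.57% and 9.42% of all genes tested. The median log2 ratio was -0.08 for clone 41 and -0.10 for clone 47. The 1 that was higher in clone 47 was IRAK2, a kinase of the MYD88 complex, with 3322 counts in clone 41, 10744 in clone 47 and 4898 in the control, giving ratios of 0.756 (clone 41) and 2.27 (clone 47). Lower in clone 47 was PIK3CD, a phosphoinositide 3-kinase of lymphocytes, with ratios of 0.880 (clone 41) and 0.354 (clone 47). BTK, a kinase of B cell receptor signalling, had ratios of 0.752 (clone 41) and 0.420 (clone 47). PELI2, a ubiquitin ligase that acts on IRAK proteins, had 1.06 (clone 41) and 0.422 (clone 47). IRAK4 and TRAF6, which also act next after MYD88 and are named for that role, lay within 2-fold of the control, unlike IRAK2 in clone 47. The kinase IRAK4 had ratios of 1.13 (clone 41) and 1.34 (clone 47), and the ligase TRAF6 had 1.03 (clone 41) and 1.05 (clone 47). IRAK1 and IRAK3 were not matched among the genes counted.

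Transcription factors and their inhibitors downstream of the receptors had 17 of 21 listed genes tested. In clone 41, 0 were at least 2-fold higher or lower than the control, beside 3.2% and 5.55% of all genes tested. In clone 47, 2 were lower and 2 higher, beside 7.57% and 9.42% of all genes tested. The median log2 ratio was -0.01 for clone 41 and -0.30 for clone 47. IRF5, which acts downstream of MYD88 in mammals, had 1605 counts in clone 41, 413 in clone 47 and 1754 in the control, giving ratios of 1.02 (clone 41) and 0.243 (clone 47). IRF4, a factor of activated B cells and plasma cells, had ratios of 0.737 (clone 41) and 0.262 (clone 47). NFKBIE, an inhibitor of NF-kB, had 0.713 (clone 41) and 2.48 (clone 47), and CEBPB, a factor of inflammatory genes, had 1.03 (clone 41) and 2.03 (clone 47).

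Negative regulators, 17 of 19 tested, had a median log2 ratio within 0.01 of 0 for clone 41 and of -0.03 for clone 47. In clone 47, 1 was at least 2-fold higher and 1 lower, beside 9.42% and 7.57% of all genes tested. TNFAIP3, a deubiquitinase that damps NF-kB signalling, had ratios of 0.636 (clone 41) and 2.24 (clone 47). SOCS3, an inhibitor of cytokine signalling, had 0.955 (clone 41) and 1.77 (clone 47) on at most 72 counts. PTPN6, the phosphatase SHP-1, had 0.842 (clone 41) and 0.582 (clone 47), and the ubiquitin ligase gene RNF216 had 1.04 (clone 41) and 0.726 (clone 47).

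Of 31 listed genes known to be induced by Toll-like receptors, 15 were tested. In clone 41, 2 were at least 2-fold higher and 4 lower, and in clone 47, 4 were higher and 3 lower. Over all genes tested 3.2% were so much higher and 5.55% so much lower in clone 41, and 9.42% and 7.57% in clone 47. The median log2 ratio of the 15 was -0.26 for clone 41 and -0.22 for clone 47, and some of the genes past 2-fold had few counts. CD83, an activation marker of B cells and dendritic cells, had 73 counts in clone 41, 1724 in clone 47 and 231 in the control. CCL20, a chemokine gene, had 9 counts in clone 41, 98 in clone 47 and 25 in the control, the same order of libraries as CD83. CCL5, another chemokine gene, had the opposite order, with 239 counts in clone 41, 22 in clone 47 and 119 in the control; its clone 47 to control ratio was 0.191 by counts and 0.377 by FPKM. LITAF, known as a gene induced by lipopolysaccharide, had ratios of 0.163 (clone 41) and 0.517 (clone 47). IL1B, a classical product of this pathway and named for that role, had 6 counts in clone 41, 4 in clone 47 and 38 in the control.

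Other innate sensors, 12 of 20 tested, had a median log2 ratio of 0.05 for clone 41 and 0.18 for clone 47. In clone 41, 1 was at least 2-fold higher and 2 lower, beside 3.2% and 5.55% of all genes tested. In clone 47, 2 were higher and 0 lower, beside 9.42% and 7.57% of all genes tested. NLRC5, a regulator of MHC class I genes, had ratios of 2.54 (clone 41) and 1.87 (clone 47). NOD1, a sensor of bacterial peptidoglycan, had 47 counts in clone 41, 97 in clone 47 and 34 in the control; its ratio in clone 47 was 2.95 by counts and 0.814 by FPKM, so its direction depended on the measure. EIF2AK2, a kinase activated by double-stranded RNA, had ratios of 0.240 (clone 41) and 1.70 (clone 47) by counts, with 1.13 for clone 47 by FPKM. ZNFX1, an RNA helicase, had ratios of 0.459 (clone 41) and 1.27 (clone 47). Of the 103 different genes tested on these lists, 0 passed edgeR's quasi-likelihood test and 0 passed in the other tools run. NLRC5 was the 1 gene among them under 0.05 before adjustment, at an adjusted p of 1 in edgeR's quasi-likelihood test, and its fitted log2 difference between the clones and the control was 1.14 (SE 0.51); IRAK2 and TNFAIP3 were each on more than 1 list.

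**Figure D5:**
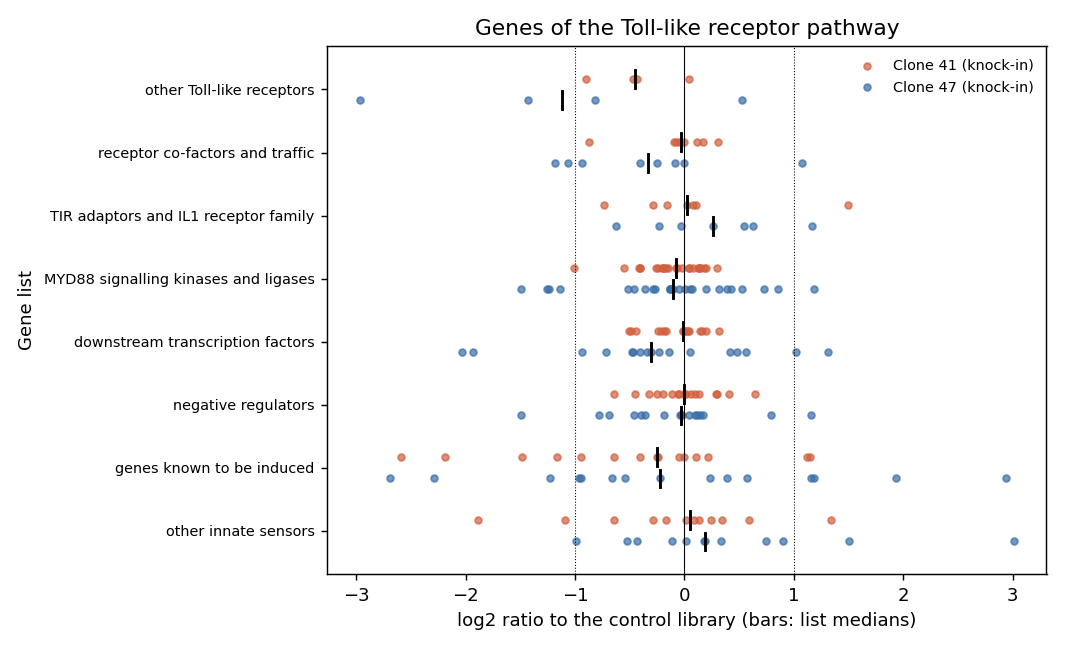
log2 ratio to the control library (x axis) of the tested genes of 8 lists around the Toll-like receptors, with clone 41 above clone 47 in each list; black bars are list medians and dotted lines mark 2-fold. The clone 47 points of the MYD88 kinases and ligases and of the transcription factors extend past 2-fold in both directions, around medians of -0.10 and -0.30. Those of the co-factors, the negative regulators and the genes known to be induced also do so.

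Genes with the pattern most like each member were found by the distance between their log2 ratios in both clones, over 3 libraries and 7908 genes whose mean CPM was 5 or more. For TLR4 they were FGL2, with ratios of 2.15 (clone 41) and 0.231 (clone 47), and RFTN2, with 1.82 (clone 41) and 0.230 (clone 47), and 0 genes lay within 0.25 of TLR4 on the log2 scale. For TLR7 they were GALC and ZNF606, for TLR5 DERL3 and KCNMA1, for TLR3 ARL16 and DACT2, for TLR21 CAND2 and SGCZ, and for MYD88 MAPKAPK5 and NDUFAF1. Within the same distance lay 42 genes for TLR7, 25 for TLR5, 32 for TLR3, 178 for TLR21 and 580 for MYD88.

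The nearest tested neighbours on the chromosome in GRCg7b were set beside the members. Their ratios are given without counts or counting intervals, so any that rest on few reads are not marked. ATP6V1G1 and BRINP1, on either side of TLR4, had clone 41 to control ratios of 1.15 and 2.40, beside 2.05 for TLR4, and clone 47 to control ratios of 1.31 and 1.44, beside 0.179 for TLR4. BRINP1 was thus above the control in clone 41, as TLR4 was, while both neighbours were above it in clone 47, where TLR4 was below. EGFL6 and PRPS2, beside TLR7, had 2.82 and 1.40 in clone 41 (TLR7 1.41) and 0.761 and 0.949 in clone 47 (TLR7 0.392). EGFL6 thus lay on the same side of the control as TLR7 in each clone. PRPS2 did so in clone 41, but its ratio in clone 47 was close to 1. SORBS2 and FAM149A, beside TLR3, had 0.617 and 0.564 in clone 41 (TLR3 1.06) and 3.41 and 0.523 in clone 47 (TLR3 0.333). CAPN8 and DISP1, beside TLR5, had 0.743 and 0.596 in clone 41 (TLR5 1.62) and 4.13 and 1.01 in clone 47 (TLR5 0.404). NDRG4, on the other side of TLR21 than SLC7A6, had 1.93 in clone 41 (TLR21 1.01) and 0.724 in clone 47 (TLR21 2.12). ACAA1 and OXSR1, beside MYD88, had 1.10 and 1.23 in clone 41 (MYD88 1.19) and 0.658 and 0.701 in clone 47 (MYD88 1.48). In clone 47 the neighbours of TLR21 and of MYD88 were thus below the control, where TLR21 and MYD88 were above it.

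Marker genes of B cells and of other cell types were summed in each library. B cell markers, 14 of 15 matched, summed to 1056 CPM in clone 41, 763 in clone 47 and 1032 in the control. In clone 47, 6 of the 14 were at least 2-fold lower and 0 higher, beside 7.57% and 9.42% of all genes tested. In clone 41, 2 were so much lower and 0 higher, beside 5.55% and 3.2% of all genes tested. Macrophage and granulocyte markers, 13 of 18 matched, summed to 230.1 CPM in clone 41, 230.8 in clone 47 and 204 in the control. CEBPB, also on the list of transcription factors, gave 59.7 CPM of this sum in clone 41, 117.9 in clone 47 and 58.1 in the control. The near-equal sums of the clones therefore do not mean equal levels of the single markers. Among these markers CSF1R, CSF3R, MARCO and LYZ had at most 3 counts in every library. In clone 47, 4 of the 9 tested were at least 2-fold lower and 3 higher, beside 7.57% and 9.42% of all genes tested. MPEG1 had ratios of 0.983 (clone 41) and 0.146 (clone 47), CTSS had 1.57 (clone 41) and 0.202 (clone 47), and MPO had 0.924 (clone 41) and 5.04 (clone 47). T and NK cell markers, 11 of 12 matched, summed to 20.8 CPM in clone 41, 33.2 in clone 47 and 40.5 in the control. CD8A gave 8.88 CPM of this sum in clone 41, 21.1 in clone 47 and 22.4 in the control. CD4, ZAP70, TRAT1, GATA3 and EOMES had at most 3 counts in every library, but others of this list were detected. In clone 41, 3 of the 6 tested were at least 2-fold lower and 0 higher, beside 5.55% and 3.2% of all genes tested. In clone 47, 2 were lower and 1 higher, beside 7.57% and 9.42% of all genes tested. CD28 had ratios of 0.223 (clone 41) and 0.129 (clone 47), and CD247 had 0.522 (clone 41) and 0.457 (clone 47). CD8A had 359 counts in clone 41, 920 in clone 47 and 1011 in the control, and CD3D had 296, 232 and 268. By FPKM CD8A was at 0.271 in clone 41, 0.737 in clone 47 and 1.24 in the control. Its distance between clone 47 and the control therefore depended on the measure. Fibroblast and epithelial markers, 6 of 10 matched, summed to 29.7 CPM in clone 41, 17.1 in clone 47 and 20.5 in the control, with COL3A1 and LUM at 3 counts or fewer. Most of these sums came from COL1A2, at 29.2 CPM in clone 41, 15.4 in clone 47 and 19.8 in the control. Of 11 thrombocyte and erythroid markers GP9 was matched, with at most 1 count. The part of these markers in the receptor values was not tested.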

How the data were processed

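mRNA was enriched and made into libraries by a strand-specific protocol with PCR, sequenced from both ends, per the labels' protocols. The submitters' processing notes name galGal4 as the build and, among the tools, TopHat2, TopHat, Bowtie, Cuffdiff and Cufflinks 2.2.1. The step from reads to counts has its tool, annotation and strand setting not given in the sources used here. Deposited counts are unscaled whole numbers for each gene, per the authors' cover sheet, and the deposited FPKM values are what that sheet calls normalised.

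Genes below filterByExpr's limits in edgeR 4.0.16 (minimum count 10, minimum total 15) were left out, which kept 10203, and libraries were scaled by TMM. Because the control group is 1 library, a gene could meet the minimum count through any 1 library. The test was edgeR's quasi-likelihood F test with its newer estimator, Benjamini-Hochberg adjusted, at 0.05. Differences on the log2 scale, and calls of 2-fold, use log2 CPM with a prior count of 2. Ratios are of TMM-scaled counts with exact conditional binomial 95% intervals, and FPKM intervals are exact Poisson intervals of the counts. PCR copies are not independent molecules, so both, and floors, cover counting error only. A count of 0 allows up to 3 counts, or 0.0742 CPM in clone 41, 0.0688 in clone 47 and 0.0666 in the control. Alternatives used DESeq2 1.42.0, limma 3.58.1, other scalings, no filter and FPKM. The edgeR step was run on simulated data with low dispersion and large changes shared by both knock-in libraries. The clones here differ from each other, so that run checks the code and not the power of the test in these data.

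Members and lists were chosen with earlier results of these data known. Named genes are all members, up to 4 per list by the larger log2 ratio among genes of mean CPM 1 or more, and the 2 nearest in pattern per member. Others are said to be named for their role or after their values were seen. The neighbours, GPR75, SLC7A6, the 3 myeloid markers with ratios, CD28, CD247, CD8A, CD3D and COL1A2 were also named after seeing values. Genes with LOC names are given for their overlap only. List genes were matched by symbol or older symbol. Neighbours and overlaps come from gene coordinates in RefSeq's GRCg7b table. The authors' build differs from it, and gene order and overlap in that build were not checked. The labels do not describe replicate cultures.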

Additional observations from a re-analysis of the deposited data

How the results depend on the processing

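Alternatives changed scaling, filter, estimator, tool, prior count, measure or the clones used. Knock-in against control gave 0 genes past the threshold in the main test, 2 with the legacy estimator, 2 with DESeq2, 1 with limma-voom and 0 in the other alternatives, and 0 members in each. The fitted log2 fold change of TLR4 was 0.15 but -0.77 with limma-voom, -0.31 on log2(FPKM + 1) and -0.64 on log2(FPKM + 0.1). That of TLR5, within 0.01 of 0 in the main test, was 0.0106 with DESeq2 size factors, 0.0045 with no filter, 0.0157 with the legacy estimator and 0.0287 with DESeq2, but -0.32 with limma-voom and -0.12 on log2(FPKM + 0.1). That of TLR7 was -0.15, and -0.45 with limma-voom and -0.36 on log2(FPKM + 0.1). With 1 clone left out the fitted value has no test. It then ranged from -2.48 without clone 41 to 1.03 without clone 47 for TLR4. The range was -1.30 to 0.69 for TLR5 and -1.35 to 0.50 for TLR7, so the sign of each of these depended on the clone. For TLR3 it was -1.58 to 0.0886. The clone 41 to control ratio of TLR3 was 1.06 by counts (0.778 to 1.45) and 0.814 by FPKM, so its sign in clone 41 is not settled. The cause of these differences between tools was not tested.

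Members at least 2-fold higher in clone 41 were 1 in the main setting, and 0 with total-count scaling, on log2(FPKM + 1) and on log2(FPKM + 0.1). On log2(FPKM + 1), a scale that understates the change of low genes, clone 47 had 0 members at least 2-fold higher in place of 1 and 1 lower in place of 4, and clone 41 against clone 47 had 2 higher in place of 4 and 0 lower in place of 1. List genes at least 2-fold from the control on that scale were 2 higher and 1 lower in clone 41, in place of 4 and 7. In clone 47 they were 4 higher and 6 lower, in place of 10 and 14. On log2(FPKM + 0.1), 2 were higher in clone 41, in place of 4. Shares over all genes were not computed in these alternative settings. A shift of the whole scale and a shift of members or list genes can therefore not be told apart there. Of the remaining alternative values, 52 counts were equal to the main value or within 1.5 times of it. These include counts that were 0 in both settings, for which a ratio has no meaning. They also include the number of members with the same order of libraries by FPKM and by CPM. No paired analysis was possible because the labels give no replicate numbers that pair the clones with the control. Depth limits TLR3 and TLR5, under 100 counts in each library, and TLR15.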
